A study of Mus musculus with 6 samples.

Results

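The unfolded protein response and the integrated stress response were examined through 35 genes, chosen by name, that encode endoplasmic reticulum (ER) chaperones, folding enzymes, degradation factors, stress sensors, transcription factors and their targets. All 35 were among the 17025 genes of the deposited table, and 33 had a mean of at least 1 FPKM (fragments per kilobase of gene model, scaled to library size) and were tested. RNA had been sequenced from integrin α6-positive epidermal progenitor cells sorted by flow cytometry from mice at postnatal day 0. The 3 libraries labelled control came from K14Cre,Ash2lF/+ mice, which carry the Cre transgene and a single floxed Ash2l allele, and the 3 labelled cKO from K14Cre,Ash2lF/F mice, with both alleles floxed. Cre was thus present in every library, driven by the keratin 14 promoter of basal keratinocytes, and no animals without Cre were analysed here. The study asked what ASH2L, a core subunit of histone methyltransferase complexes, does as the epidermis differentiates and hair follicles form. Below, "Ctrl-labelled" and "cKO-labelled" name the libraries by these labels, with values in the order of replicates 1, 2 and 3.

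Proteins that enter the ER are folded by chaperones such as BiP (Hspa5) and by disulphide isomerases, and those that fail are returned to the cytosol for ER-associated degradation. When unfolded proteins build up, the sensors IRE1 (Ern1), ATF6 and PERK (Eif2ak3) raise the transcription of these genes through XBP1, cleaved ATF6 and ATF4. PERK and GCN2 (Eif2ak4), which senses uncharged tRNA, also phosphorylate the initiation factor eIF2, the shared step of the integrated stress response, in which ATF4 drives genes of amino acid supply and, under lasting stress, Ddit3 (CHOP) and Trib3. This machinery is known to be active in epidermis that differentiates.

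The promoters of several of these genes carry the ER stress elements known to bind ATF6 and XBP1, and they are shown because genes with and without such an element are described below. RefSeq promoter sequences (GRCm38.p6, a build other than the GRCm39 of the deposited values) were at hand for 31 of the 35 genes, and the 250 bases before each start were searched on both strands. The ER stress element ERSE (CCAAT and CCACG, 9 bases apart) was found before 9 of the 31 genes, against 0.1295% of all 27025 genes with a promoter sequence. ERSE-II (ATTGG and CCACG, 1 base apart) was found before Herpud1 alone among the 31, against 0.037% of those 27025 genes. The ATF4 and C/EBP element CARE (TGATGNAA) was found before Herpud1, Chac1 and Asns, against 3.91% of those genes. UPRE (TGACGTGG), a motif bound by XBP1, was found before none of the 31, against 0.603%. These matches are letters in a window and do not show binding. The Herpud1 window ended in CCAAT, 9 bases and CCAC, 1 letter short of an ERSE, and the next base was not searched. The elements are written below on the strand that carries the motif, with the fixed letters in capitals.
Hspa5: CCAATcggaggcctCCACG
Hsp90b1, upstream element: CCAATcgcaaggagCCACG
Hsp90b1, downstream element: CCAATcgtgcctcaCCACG
Calr: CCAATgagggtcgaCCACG
Canx: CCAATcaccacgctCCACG
Pdia6: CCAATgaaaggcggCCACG
Ero1b: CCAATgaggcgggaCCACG
Dnajc3: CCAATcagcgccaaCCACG
Creld2: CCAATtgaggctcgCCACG
Syvn1: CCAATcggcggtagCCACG
Herpud1, ERSE-II: ATTGGgCCACG

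The whole 250 bases before the start are given for a gene that was higher in cKO-labelled libraries (Herpud1), a gene that was lower (Dnajc3) and the leading chaperone gene (Hspa5), on the coding strand and with the fixed letters of ERSE, ERSE-II and CARE in capitals. Among the members called lower below, Dnajc3 was the 1 with an ERSE, and the other 3 (Edem1, Dnajb11 and Ppp1r15a) had none. The Herpud1 promoter lies at chr8:94386179-94386428, that of Hspa5 at chr2:34771840-34772089 and that of Dnajc3 at chr14:118937682-118937931, all on the plus strand of GRCm38.p6.
Herpud1: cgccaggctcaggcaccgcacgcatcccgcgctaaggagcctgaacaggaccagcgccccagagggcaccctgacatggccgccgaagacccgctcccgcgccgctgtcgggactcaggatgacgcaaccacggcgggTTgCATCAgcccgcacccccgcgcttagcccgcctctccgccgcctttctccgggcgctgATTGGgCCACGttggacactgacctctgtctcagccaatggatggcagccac
Hspa5: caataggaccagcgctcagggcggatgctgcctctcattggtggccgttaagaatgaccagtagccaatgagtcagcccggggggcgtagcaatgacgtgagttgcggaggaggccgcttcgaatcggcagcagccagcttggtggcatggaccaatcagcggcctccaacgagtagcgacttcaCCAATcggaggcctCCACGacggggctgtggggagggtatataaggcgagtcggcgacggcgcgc
Dnajc3: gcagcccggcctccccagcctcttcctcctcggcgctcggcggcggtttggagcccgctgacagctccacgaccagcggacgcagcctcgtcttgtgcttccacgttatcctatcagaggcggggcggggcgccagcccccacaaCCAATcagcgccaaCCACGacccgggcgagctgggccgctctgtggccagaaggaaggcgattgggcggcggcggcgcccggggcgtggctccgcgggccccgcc

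The targeted gene went against the labels, so the groups are called by their labels throughout. Ash2l stood at 12.4, 18.1 and 15.9 FPKM in Ctrl-labelled libraries and at 30.9, 29.5 and 22.9 FPKM in cKO-labelled ones. It was called higher in the latter (0.81, SE 0.19, adjusted p = 0.0240), a call lost in 5 of the 16 alternatives. The values are totals over the gene, and the floxed exon was not examined. Whether labels were exchanged was not tested, and every difference below would change sign if they were. The libraries held 31578875 to 36027550 fragments. Markers of basal keratinocytes were present in every library (summed level of 11 genes 5112 to 8915 FPKM in Ctrl-labelled ones and 8148 to 10505 in cKO-labelled ones). Of these 11 genes 8 had negative differences (median -0.97): Krt15 was called higher, Itgb1 and Itgb4 were called lower, and the gene of the sorted integrin, Itga6, averaged 104.3 and 42.1 FPKM (adjusted p = 0.071). Other cell types were present too: 10 suprabasal markers summed to 4583 to 6449 and 34706 to 68049 FPKM, 10 melanocyte markers to 3003 to 3433 and 182 to 403 FPKM, and 10 fibroblast markers to 126 to 415 and 166 to 512 FPKM, in Ctrl-labelled and cKO-labelled libraries. Immune, endothelial, Schwann and Merkel cell markers summed to at most 31.8 FPKM in any library, with Ptprc, Cdh5 and Isl1 at 0 in some libraries, and 5 plasma cell markers summed to 202 to 227 FPKM, of which Sdc1, also a keratinocyte gene, made up 187 to 221 FPKM, while Jchain and Mzb1 stayed at or under 0.26 FPKM. Library cKO 3 had the highest suprabasal and lowest melanocyte sum. Its basal sum was also the highest, with Krt5 and Krt15 highest there, yet 7 of the 11 basal markers were lowest in it. This was so for 43.9% of all tested genes. Itga6 stood at 19.7 FPKM in cKO 3, against 53.6 and 53.0 FPKM in cKO 1 and 2. The median ratio of cKO 3 to the mean of cKO 1 and 2 was 0.39 over the basal markers and 0.85 over all tested genes. Library Ctrl 1 had 1454 FPKM over 15 immediate early genes, which respond to cell dissociation, against 354 FPKM in each of Ctrl 2 and 3 and 230 to 272 FPKM in cKO-labelled ones. The part of these cell types and of dissociation in the differences below was not tested, and in sorted bulk RNA fewer cells of a type cannot be told apart from less RNA per cell.

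Of the 33 tested genes, 1 was higher and 4 were lower in cKO-labelled libraries (limma on log2(FPKM + 1), adjusted p under 0.05 over all 11603 genes tested). Of all tested genes, 5.87% were called higher and 13.6% lower, 19.5% in either direction, so the members' shares of 3.03% and 12.1% lay below and close to the background. Herpud1 rose, and Edem1, Dnajc3, Dnajb11 and Ppp1r15a fell. The median difference of the 33 was -0.28 on the log2(FPKM + 1) scale, against -0.17 over all genes tested. Scaling by the median of ratios moved these medians to -0.09 and 0.01; Herpud1 and Edem1 were then the members called, when 8.60% of all genes were higher and 9.08% lower. The groups did not overlap for 10 of the 33 tested members, Herpud1 above and 9 below, against 12.0% of all tested genes above and 30.9% below. For such a gene the exact permutation test, two-sided, gives p = 0.1, the smallest that 3 against 3 allow. The smallest fragment count behind a value of a tested member was 55 (Trib3), and that of all other tested members was at least 159.

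**Figure D1:**
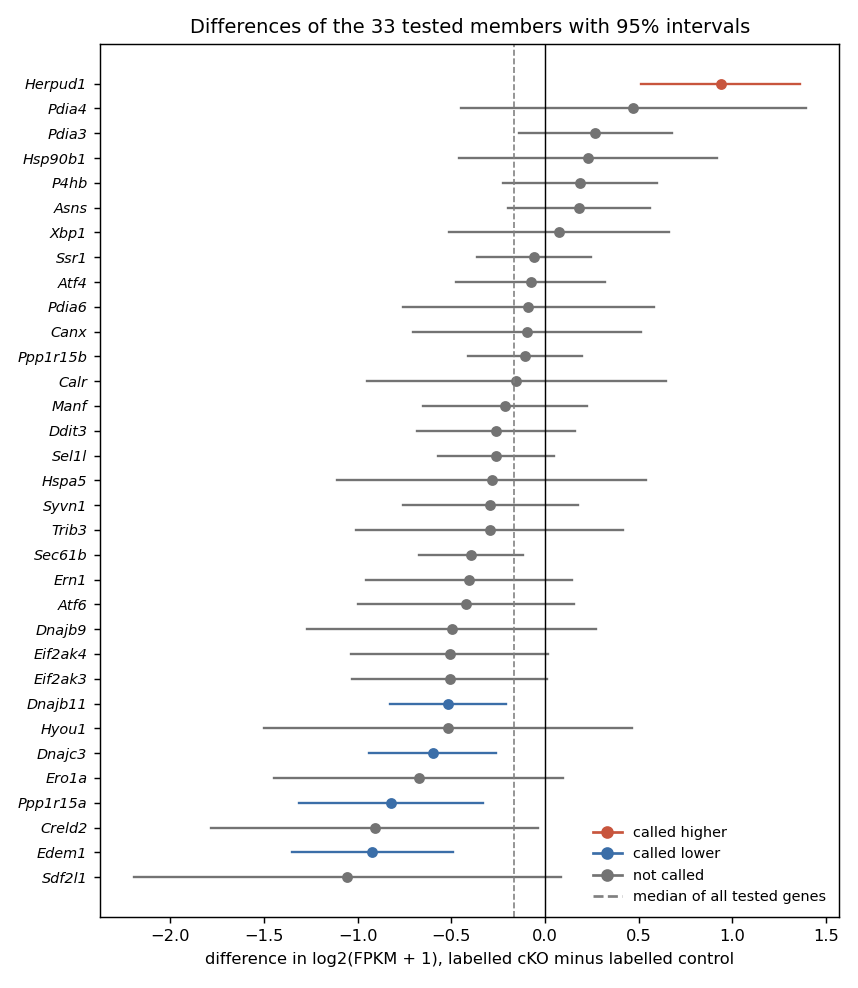
Difference in log2(FPKM + 1), cKO-labelled libraries minus Ctrl-labelled libraries, for the 33 tested members (points) with 95% intervals from limma (bars), coloured by call; the dashed line is the median of all tested genes (-0.17). Herpud1 lies alone on the right at 0.94, and the called falls lie between -0.52 (Dnajb11) and -0.92 (Edem1).

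Genes of ER-associated degradation moved in both directions. Herpud1 encodes a ubiquitin-like membrane protein that organises the degradation complex of the ER. It stood at 19.3, 24.9 and 29.4 FPKM in Ctrl-labelled libraries and at 53.7, 42.0 and 46.7 FPKM in cKO-labelled ones. Every library cKO lay above every library control, with means of 24.5 ± 5.05 and 47.5 ± 5.87 FPKM (SD, n = 3 each), a ratio of 1.94. The difference was 0.94 (SE 0.18, adjusted p = 0.0127), and it kept its call under every alternative run, with adjusted p up to 0.0465.

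Edem1, which encodes a lectin-like protein that hands misfolded glycoproteins to degradation, went the other way. It stood at 24.5, 21.6 and 16.1 FPKM in Ctrl-labelled libraries and at 10.7, 10.6 and 9.62 FPKM in cKO-labelled ones. The groups were apart and cKO-labelled libraries lay close together (10.3 ± 0.612 against 20.7 ± 4.25 FPKM). The difference was -0.92 (SE 0.19, adjusted p = 0.0140), and the call was lost without library Ctrl 2 (-0.88, adjusted p = 0.0595). Sel1l and Syvn1, the adaptor and the ubiquitin ligase of the central degradation complex, averaged 31.1 and 22.7 FPKM in Ctrl-labelled libraries and 25.7 and 18.2 FPKM in cKO-labelled ones, and neither passed the test (adjusted p = 0.202 and 0.338).

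Of the 4 co-chaperone genes, whose products bring substrates to BiP or tune its ATPase cycle, Dnajc3 and Dnajb11 were lower. Dnajc3 (P58IPK) stood at 30.2, 25.1 and 26.3 FPKM in Ctrl-labelled libraries and at 17.8, 15.9 and 19.1 FPKM in cKO-labelled ones. Its difference was -0.60 (SE 0.15, adjusted p = 0.0283), with no overlap of the groups. Dnajb11 (ERdj3), a co-chaperone that binds unfolded substrates directly, stood at 41.2, 35.2 and 37.6 FPKM and at 24.4, 26.1 and 28.2 FPKM, again without overlap (-0.52, SE 0.13, adjusted p = 0.0336). The call of Dnajc3 was lost without library Ctrl 1, 2 or 3 or cKO 1 or 2 (adjusted p = 0.0642, 0.0659, 0.0758, 0.0837 and 0.105) and with median-of-ratios scaling (-0.41, adjusted p = 0.136). That of Dnajb11 was lost without the same libraries (adjusted p = 0.0728, 0.0713, 0.0931, 0.120 and 0.103) and under the same scaling (-0.32, adjusted p = 0.195).

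Sdf2l1 and Dnajb9, the other co-chaperone genes, did not pass the test. Sdf2l1 stood at 22.1, 10.9 and 15.4 FPKM in Ctrl-labelled libraries and at 4.27, 4.27 and 17.2 FPKM in cKO-labelled ones, so that cKO 3 lay within the control range and the others below it (-1.06, SE 0.49, adjusted p = 0.170). Without library cKO 3 the difference of Sdf2l1 was -1.65 and was called (adjusted p = 0.0105). Dnajb9 (ERdj4), a known XBP1 target, stood at 22.1, 8.52 and 19.0 FPKM and at 12.6, 10.9 and 8.65 FPKM; its lowest value was in Ctrl 2 and the groups overlapped (-0.50, 95% interval -1.27 to 0.27).

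**Figure D2:**
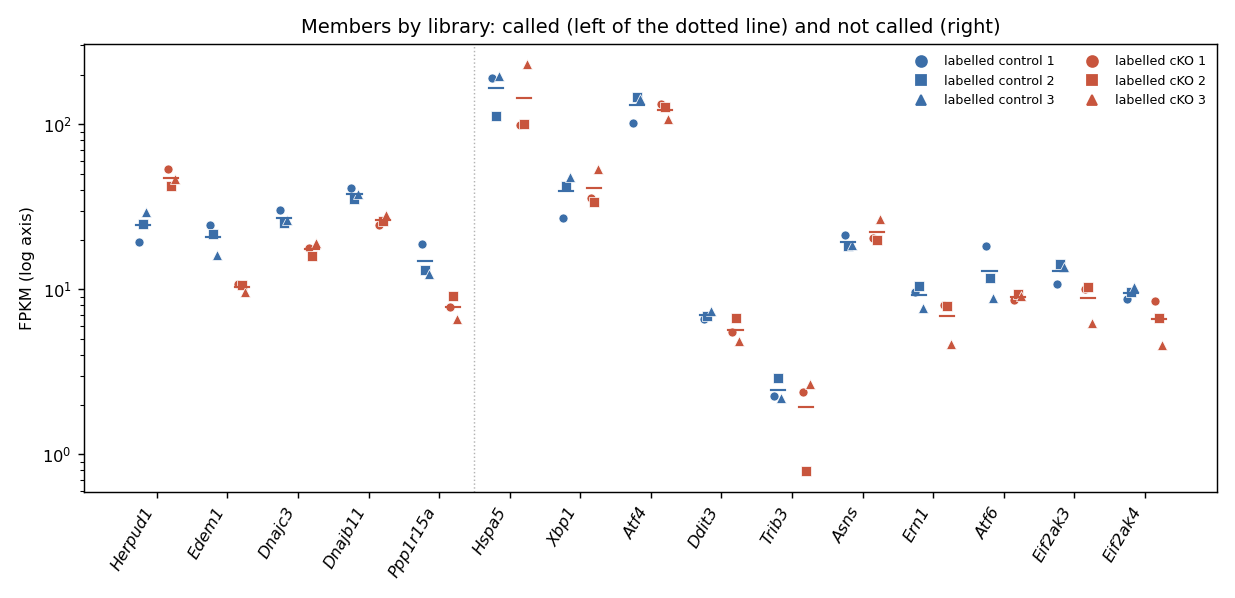
FPKM on a log axis in each of the 6 libraries (points, shape by replicate, colour by label) with group means (bars), for the 5 called members left of the dotted line and for Hspa5, the transcription factor, target and sensor genes right of it. Herpud1 lies higher in all 3 cKO-labelled libraries and the other 4 called members lower, while the Hspa5 value of cKO 3 (230.5 FPKM) lies above all controls and those of cKO 1 and 2 (99.3 and 99.7 FPKM) below them.

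The main ER chaperone genes did not separate the groups and spread widely between libraries of the same label. Hspa5, which encodes BiP, stood at 189.7, 112.3 and 194.8 FPKM in Ctrl-labelled libraries and at 99.3, 99.7 and 230.5 FPKM in cKO-labelled ones. The highest and the lowest of the 6 values were thus both in cKO-labelled libraries, and the difference was -0.28 (95% interval -1.11 to 0.54, adjusted p = 0.607). Calr, the calcium-binding lectin calreticulin, stood at 218.9, 201.6 and 510.4 FPKM in cKO-labelled libraries, against 247.0 to 356.7 FPKM in Ctrl-labelled ones. Hsp90b1 (GRP94) stood at 147.4, 136.3 and 293.2 FPKM against 121.8 to 181.3 FPKM, Canx, the membrane lectin calnexin, at 78.7, 78.4 and 137.8 FPKM against 86.5 to 134.9 FPKM, and Hyou1, a nucleotide exchange factor for BiP, at 13.4, 15.1 and 40.5 FPKM against 22.8 to 44.8 FPKM. In all 5 chaperone genes library cKO 3 lay above cKO 1 and 2, by 1.76-fold (Canx) to 2.84-fold (Hyou1) of their mean. None of the 5 was called by limma-voom or in the main limma fit, where none had an unadjusted p under 0.05. Hyou1 was called lower with array weights (-0.77, adjusted p = 0.0199), when 2831 of 11603 genes were. It was also called lower (-0.71, adjusted p = 0.0101) in a fit on libraries Ctrl 2, Ctrl 3, cKO 1 and cKO 2, described below.

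The same library stood apart in the oxidoreductase genes, whose products form and rearrange disulphide bonds. Pdia4 stood at 42.8, 28.2 and 27.3 FPKM in Ctrl-labelled libraries and at 31.0, 32.3 and 89.5 FPKM in cKO-labelled ones, and Pdia6 at 117.4, 86.4 and 100.4 FPKM and at 77.2, 70.7 and 154.6 FPKM. Pdia3 and P4hb were also highest in cKO 3 (312.9 and 218.4 FPKM), against 206.2 and 217.2 FPKM for Pdia3 and 159.9 and 172.9 FPKM for P4hb in cKO 2 and 1. Ero1a, the oxidase that recharges the disulphide isomerases, did not follow: it stood at 10.9, 12.4 and 12.8 FPKM in cKO-labelled libraries, below all Ctrl-labelled ones (35.8, 13.4 and 15.7 FPKM), and did not pass the test (-0.67, adjusted p = 0.192). Its paralogue Ero1b lay below the filter, at 0.991, 0.724 and 0.578 FPKM and at 1.04, 1.01 and 1.06 FPKM, and without the filter was at 0.21 (adjusted p = 0.347). All cKO-labelled values of Ero1b lay above the Ctrl-labelled ones.

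Of the 16 tested chaperone, co-chaperone, oxidoreductase and secreted-factor genes, 10 were over 1.5-fold higher in library cKO 3 than the mean of cKO 1 and 2, against 8.63% of all tested genes. The median of this ratio was 1.91 over the 16 genes, 0.98 over the other 17 members and 0.85 over all tested genes. The share over 1.5-fold was 45% in the list of aminoacyl-tRNA synthetase genes described below, 43.3% in that of ATF4 targets, 34.8% in cytosolic and mitochondrial heat shock genes and 10.3% in that of other ER folding genes. Among the 8 tested members with an ERSE the ratio ranged from 1.14 (Dnajc3) to 2.78 (Creld2), with a median of 2.08, and over the 21 other tested members with a promoter sequence it ranged from 0.58 (Ern1) to 4.02 (Sdf2l1), with a median of 0.99. In each of these sets 5 genes were highest in cKO 3. Herpud1, with a ratio of 0.98, was counted among the 21, though the last letter of a possible ERSE lay outside its window. These ratios compare single libraries and describe them without a test. Library cKO 3 was also the one with the most suprabasal and the least fibroblast marker expression among cKO-labelled ones (166.3 FPKM against 475.8 and 512.4 FPKM for the fibroblast sum); whether these go together was not tested.

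**Figure D3:**
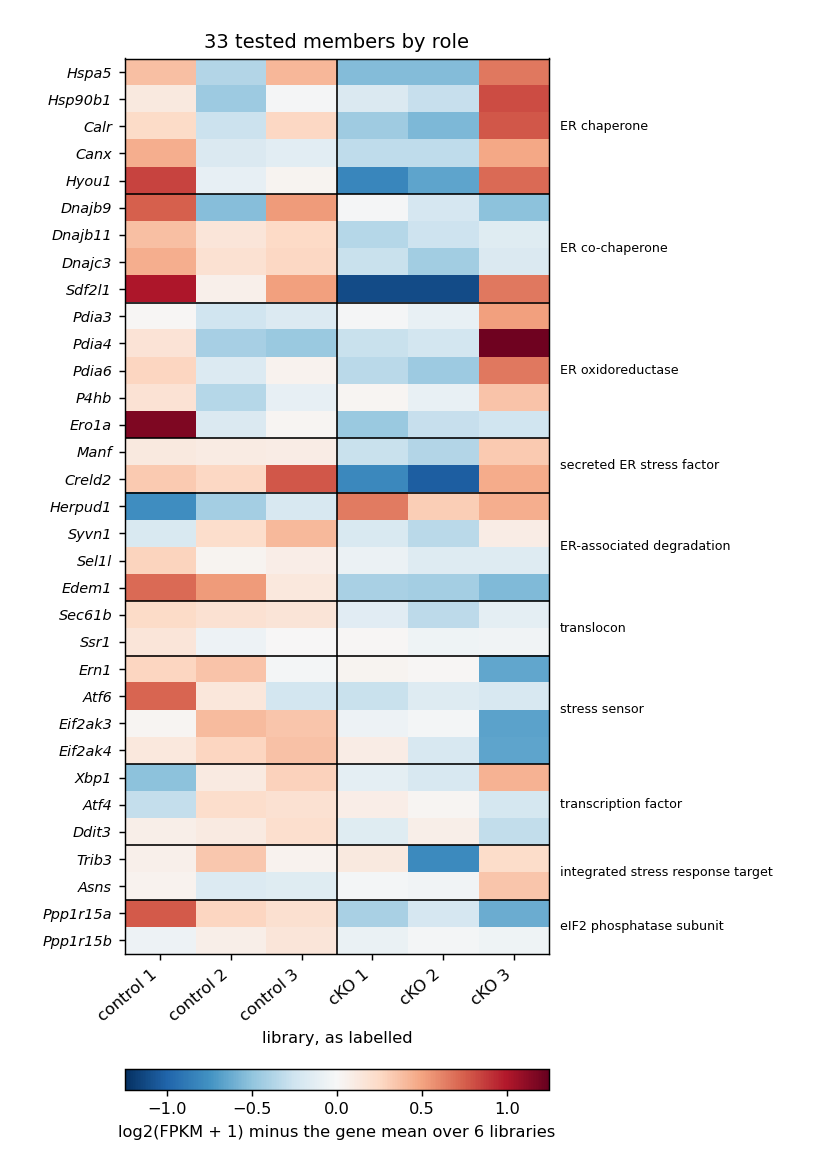
Each tested member (rows, grouped by role) in each library (columns, by label), as log2(FPKM + 1) minus the mean of that gene over the 6 libraries; red is above and blue below the mean. Library cKO 3 is red in the 5 ER chaperone rows and in Pdia3, Pdia4, Pdia6 and P4hb, where cKO 1 and 2 are near or below 0, and blue in Ern1, Eif2ak3 and Eif2ak4.

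The secreted factors Manf and Creld2, which leave the ER under stress, had the same shape. Creld2 stood at 22.4, 21.4 and 31.0 FPKM in Ctrl-labelled libraries and at 9.70, 8.14 and 24.8 FPKM in cKO-labelled ones (-0.91, SE 0.38, adjusted p = 0.130). Manf, a neurotrophic factor retained by BiP, stood between 84.6 and 86.2 FPKM in all Ctrl-labelled libraries and at 65.0, 61.2 and 99.2 FPKM in cKO-labelled ones (-0.21, SE 0.19, adjusted p = 0.453). Without library cKO 3 both were called lower, Creld2 at -1.37 (adjusted p = 0.00624) and Manf at -0.43 (adjusted p = 0.0283). Of the translocon genes, through whose products nascent chains enter the ER, Sec61b stood at 71.8, 69.6 and 68.2 FPKM and at 55.2, 48.2 and 55.7 FPKM without overlap (-0.39, SE 0.12, adjusted p = 0.0541), and was called without cKO 3 (-0.43, adjusted p = 0.0405). Ssr1, of the translocon-associated complex, varied little, from 25.5 to 29.6 FPKM over all 6 libraries (-0.06, 95% interval -0.36 to 0.24).

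Without library cKO 3, 7 members were lower (Creld2, Dnajb11, Dnajc3, Edem1, Manf, Sdf2l1 and Sec61b) and Herpud1 higher, when 12.4% and 6.11% of 11673 genes were called in these directions. In a fit on libraries Ctrl 2, Ctrl 3, cKO 1 and cKO 2, the closest pair within each label, 12 members were lower and Herpud1 higher, when 20.6% and 10.1% of 11645 genes were called. That fit was chosen with the spread of the libraries known. Without library Ctrl 2 no member was called lower, when 710 of 11542 genes were. Without Ctrl 1, Ctrl 3, cKO 1 or cKO 2 Edem1 alone was, when 1078, 781, 977 and 920 genes were lower. With all 6 libraries 1576 genes were lower.

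The 4 stress sensor genes had negative differences, and none passed the test or had an unadjusted p under 0.05. Ern1 stood at 9.68, 10.4 and 7.76 FPKM in Ctrl-labelled libraries and at 8.06, 7.94 and 4.66 FPKM in cKO-labelled ones (-0.41, 95% interval -0.95 to 0.14). Atf6 stood at 18.2, 11.8 and 8.87 FPKM and at 8.57, 9.41 and 9.13 FPKM (-0.42, 95% interval -0.996 to 0.16), its spread lying mainly among Ctrl-labelled libraries. For both genes the groups overlapped. Eif2ak3 stood at 10.7, 14.2 and 13.7 FPKM and at 10.04, 10.3 and 6.25 FPKM, and Eif2ak4 at 8.67, 9.64 and 10.4 FPKM and at 8.44, 6.71 and 4.57 FPKM. The groups did not overlap for either kinase gene, though cKO 1 lay close to the lowest control, and the differences were -0.51 each (adjusted p = 0.152 and 0.154). Eif2ak3 was called lower on the 4 libraries named above (adjusted p = 0.0428). In library cKO 3, where the chaperone genes were high, Ern1, Eif2ak3 and Eif2ak4 were at their lowest of all 6 libraries, as were 43.9% of all tested genes in that library.

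The transcription factor genes did not separate the groups. Xbp1 stood at 27.0, 42.5 and 48.0 FPKM in Ctrl-labelled libraries and at 35.8, 34.0 and 53.2 FPKM in cKO-labelled ones (0.07, 95% interval -0.51 to 0.66); a gene total does not distinguish the spliced, active form. On those 4 libraries the sign of Xbp1 turned and it was called lower (-0.36, adjusted p = 0.0441). Atf4, which is controlled largely at translation, stood at 101.5, 146.1 and 142.2 FPKM and at 132.6, 126.6 and 107.1 FPKM (-0.08, 95% interval -0.47 to 0.32), with the lowest and the highest value both among Ctrl-labelled ones. Ddit3, which encodes the pro-apoptotic factor CHOP, was low throughout, at 6.64, 6.89 and 7.42 FPKM and at 5.54, 6.67 and 4.87 FPKM (-0.26, 95% interval -0.68 to 0.16), from 427 to 592 fragments a library.

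Of the integrated stress response targets, Chac1 and Trib3 were near the floor of the data and Asns was not. Chac1, a glutathione-degrading enzyme gene induced by ATF4 and CHOP, was listed at 0 in 4 of the 6 libraries, with 12 fragments in library Ctrl 2 and 17 in cKO 3, and was not tested. Trib3, a pseudokinase gene downstream of CHOP, stood at 2.25, 2.92 and 2.20 FPKM in Ctrl-labelled libraries and at 2.38, 0.788 and 2.65 FPKM in cKO-labelled ones (-0.30, 95% interval -1.01 to 0.42), the value of cKO 2 resting on 55 fragments. Asns, asparagine synthetase, stood at 21.4, 18.3 and 18.5 FPKM and at 20.3, 20.0 and 26.6 FPKM (0.18, 95% interval -0.20 to 0.56).

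Ppp1r15a (GADD34), the inducible subunit of the phosphatase that reverses eIF2 phosphorylation, was lower. It stood at 18.9, 13.1 and 12.4 FPKM in Ctrl-labelled libraries and at 7.81, 9.12 and 6.61 FPKM in cKO-labelled ones, with no overlap (-0.82, SE 0.21, adjusted p = 0.0331). Its highest value was in library Ctrl 1, where the immediate early genes were also highest. The call was lost without any one library (Ctrl 1, 2 and 3: adjusted p = 0.0698, 0.0762 and 0.0581; cKO 1, 2 and 3: adjusted p = 0.0863, 0.0568 and 0.0585), without the filter (0.0564) and with median-of-ratios scaling (-0.64, adjusted p = 0.0639). Ppp1r15b, the constitutive subunit, stood at 23.7 to 27.5 FPKM in Ctrl-labelled libraries and at 23.3 to 24.3 FPKM in cKO-labelled ones (-0.11, 95% interval -0.41 to 0.20).

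Other genes of the same pathways were read from lists that hold none of the 35. Of 30 tested ATF4 target genes, 7 were higher and 5 lower in cKO-labelled libraries (23.3% and 16.7%, against 5.87% and 13.6% of all genes), with a median difference of 0.11 against -0.17. The sign of that median turned with a filter at 5 FPKM (-0.14), without a filter (-0.01) and without Ctrl 2 (-0.05). Phgdh, the first enzyme of serine synthesis, averaged 24.1 FPKM in Ctrl-labelled libraries and 100.3 FPKM in cKO-labelled ones (1.99, SE 0.17, adjusted p = 0.00102), and Nupr1, a small stress-induced nuclear protein gene, 8.49 and 36.4 FPKM (2.01, SE 0.21, adjusted p = 0.00169). The other genes called higher, named after their values were seen, were Psph (serine synthesis, 0.95), Aldh1l2 (mitochondrial folate metabolism, 1.53), Cbs (transsulphuration, 1.11), Sesn2 (an inhibitor of mTORC1 signalling, 0.97) and the transcription factor gene Atf5 (1.42, with 47.1 FPKM in cKO 3 against 16.8 and 17.7 in cKO 1 and 2). Among amino acid transporter genes, Slc7a5 averaged 198.7 and 64.5 FPKM (-1.59, SE 0.20, adjusted p = 0.00286), and its partner Slc3a2 (-1.44) and the glutamine transporter gene Slc1a5 (-1.22) were lower as well, while Slc7a1 (-0.10), Slc1a4 (-0.14), Slc6a9 (-0.50) and Slc7a11 (0.36) were not called; all but Slc7a5 were named after their values were seen. Lonp1, a mitochondrial protease gene (-0.86, SE 0.13, adjusted p = 0.00500), and Eif4ebp1 (-0.68), a translation repressor gene, were the remaining genes called lower. Atf3 and Ddit4, both known to respond to dissociation stress too, stood at 66.7 and 325.7 FPKM in library Ctrl 1 and at up to 3.45 and 112.7 FPKM in the others, and neither passed the test; both were named after their values were seen. The 7 higher became 4 without library Ctrl 1 or cKO 1, 3 without Ctrl 2 or Ctrl 3, and 4 without the filter and with limma-voom. Over all genes 393 to 535 were higher without 1 of these libraries, 549 without the filter and 618 with limma-voom, against 681. Phgdh, Nupr1, Slc7a5 and Lonp1 kept their calls under every alternative run.

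**Figure D4:**
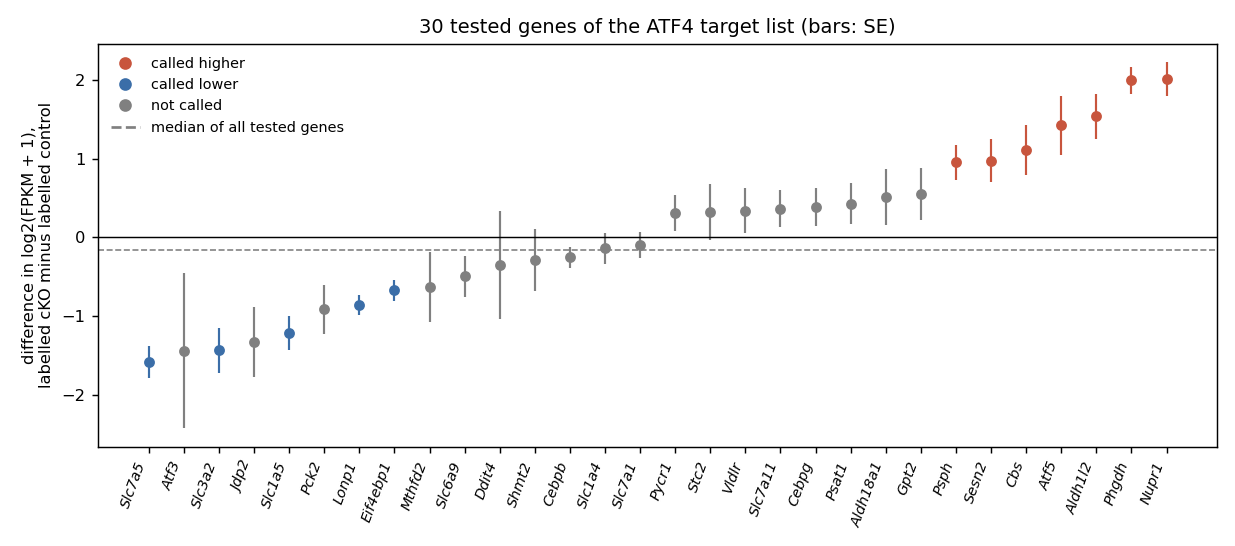
Difference in log2(FPKM + 1), cKO-labelled libraries minus Ctrl-labelled libraries, for the 30 tested genes of the ATF4 target list (points, coloured by call) with the SE from limma (bars); the dashed line is the median of all tested genes. The list divides, from Slc7a5 at -1.59 to Nupr1 at 2.01.

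Of 20 cytosolic aminoacyl-tRNA synthetase genes, which ATF4 is also known to induce, none was called in either direction in the main limma fit or by limma-voom. In the main fit 5.87% of all genes were called higher and 13.6% lower. At an unadjusted p under 0.05 in that fit 2 synthetase genes were higher and 1 lower, against 1175 and 2855 of all 11603 genes. Their median difference was 0.02. Array weights gave 1 higher and 2 lower, when 1423 and 2831 of 11603 genes were. Without cKO 3, 2 were lower, when 12.4% of all genes were. On the 4 libraries 3 were higher and 2 lower, when 10.1% and 20.6% of all genes were. Of 21 tested genes for other sensors and for eIF2 and eIF2B subunits, 1 was called higher and none lower (4.76% and 0%, against 5.87% and 13.6% of all genes). The gene called was Creb3l1 (means 1.94 and 6.85 FPKM, 1.46, SE 0.31, adjusted p = 0.0164), which encodes an ER-anchored transcription factor known from matrix-secreting cells. The call of Creb3l1 was lost without library Ctrl 1 or 2 or cKO 1 or 2 (adjusted p = 0.0503, 0.0653, 0.051 and 0.0589) and with the replicate block (0.0521).

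Of 29 other ER folding genes, 4 were higher and 1 lower (13.8% and 3.45%, against 5.87% and 13.6% of all genes). Rcn1, a calcium-binding protein gene of the ER lumen, averaged 16.6 and 56.5 FPKM (1.65, SE 0.26, adjusted p = 0.00568), and the cargo receptor gene Lman1 21.7 and 40.5 FPKM (0.87, SE 0.17, adjusted p = 0.0118). Fkbp11 (0.94) and Erp29 (0.65) were the other genes called higher, named after their values were seen, and Calu, a calcium-binding protein gene of the secretory pathway, was lower (-0.75, SE 0.13, adjusted p = 0.00914). The 4 higher became 2 without library Ctrl 3, cKO 1 or cKO 2, when 450, 399 and 402 of all genes were higher, against 681. The 1 lower became 2 without cKO 3 and 4 on the 4 libraries, when 12.4% and 20.6% of all genes were lower. Of 30 other degradation genes, none was higher and 3 were lower (10%, below the 13.6% of all genes): Aup1, which recruits ubiquitin-conjugating enzymes to the ER (means 88.9 and 50.03 FPKM, -0.82, SE 0.12, adjusted p = 0.00401), Ube2j1, such an enzyme gene (-0.87, adjusted p = 0.0298), and Edem3 (-0.92; named after its value was seen). Of 31 translocon, signal peptidase and glycosylation genes, none was higher and 3 were lower (9.68%, also below that share): Sec11c, a signal peptidase subunit gene (33.7 and 13.8 FPKM, -1.23, SE 0.22, adjusted p = 0.00872), Srp14, of the signal recognition particle (-0.64, adjusted p = 0.0230), and Tram2 (-1.30; named after its value was seen). At an unadjusted p under 0.05 there was 1 higher degradation gene and no higher translocon gene, against 1175 of all 11603 genes. At that threshold 7 degradation and 8 translocon genes were lower, against 2855 of all genes. By limma-voom none was called higher in either list, when 618 of 11599 genes were. With median-of-ratios scaling 1 was higher and 1 lower in each list, when 8.60% and 9.08% of all genes were. Array weights gave 1 higher and 7 lower degradation genes and 8 lower translocon genes, when 1423 of 11603 genes were higher and 2831 lower. Each list of 3 lower fell to 1 without library Ctrl 2, Ctrl 3 or cKO 1, when 710, 781 and 977 of all genes were lower. Each rose to 7 on the 4 libraries, when 20.6% of all genes were lower. Without Ctrl 1 there were 2 and 1 lower, and without cKO 2, 1 and 2, when 1078 and 920 of all genes were lower. Ube2j1 lost its call without any library but Ctrl 1 (adjusted p = 0.0553 to 0.105), without the filter (0.0538) and with median-of-ratios scaling (0.0523). Srp14 lost it without any but cKO 3 (adjusted p = 0.0524 to 0.0816) and under that scaling (0.143).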

How the data were processed

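The deposited table gave FPKM values, made by the authors, for 17025 genes in 6 libraries. Per the submitters' processing notes, fastp, HISAT2, HTSeq and the GRCm39 build were used; no source used here gives versions, annotation, gene filter or strand. Whole fragments and library totals were recovered from the FPKM steps for 17018 genes (relative tolerance 1e-09). The 11603 genes averaging 1 FPKM or more entered limma 3.58.1 (R 4.3.3), fitted with a trended prior variance to log2(FPKM + 1) by group. P-values were adjusted over all of them (Benjamini-Hochberg) and called under 0.05, and the 95% intervals come from the same fit. Differences understate changes of genes with low values. The labels do not say that libraries came from separate animals, so p-values measure the spread between libraries. All members are described, with values by library for called members and for the sensors, transcription factors and main targets, and for further members where libraries of a label differed; of each list the 2 called genes with the smallest p in each direction are named. Members and lists were chosen with earlier results of these data known. Without strand, reads of overlapping genes are uncertain: exons shared with other genes (GENCODE M21) made up 15.7% of exon bases for Hsp90b1, 11.4% for Ppp1r15b, 9.25% for Manf, 8.05% for Eif2ak3, 4.73% for Ddit3, under 2% for the other members found in that annotation, and was not measured for Ero1a and Ero1b, whose names it lacks. Alternatives were a pseudocount of 0.1, other filters, 2 scalings, robust variances, array weights, a replicate block, limma-voom and each library left out. Figures were drawn with matplotlib 3.10.9.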

Additional observations from a re-analysis of the deposited data

How the results depend on the processing

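The count of 1 member higher (Herpud1) was the same under all 16 alternatives. The count of 4 lower was the same with a pseudocount of 0.1, a filter at 5 FPKM, robust variances and limma-voom, and without a filter, where Sec61b took the place of Ppp1r15a. It was 1 under scaling by the median of ratios, 1 under quantile normalization, 1 with the replicate block, 10 with array weights and 12 on the 4 libraries, and 0 to 7 with a library left out. Array weights gave cKO 3 a weight of 0.191 and cKO 2 one of 3.64; other causes were not tested. Deviations of same-numbered libraries from their group means correlated at -0.31, 0.08 and -0.26, and those of differently numbered ones at -0.20 to 0.29. These values gave no sign of pairing by replicate number. They cannot exclude it, because deviations within a group of 3 sum to 0. With the replicate block all genes had 432 calls higher and 893 lower, against 681 and 1576, and Herpud1 (adjusted p = 0.0407) and Edem1 (adjusted p = 0.0344) were called. Over all genes array weights gave 1423 and 2831, the 4 libraries 1172 and 2400, scaling by the median of ratios 998 and 1054, and quantile normalization 1023 and 1089. With a library left out, 393 to 713 of all genes were higher and 710 to 1453 lower. Signs turned for members that were not called with all 6 libraries. Under scaling by the median of ratios these were Atf4 (0.124), Calr (0.0479), Canx (0.103), Pdia6 (0.112), Ppp1r15b (0.0863) and Ssr1 (0.137), and under quantile normalization Atf4 (0.0372), Pdia6 (0.0139), Ppp1r15b (0.0781) and Ssr1 (0.112). With array weights they were Hsp90b1 (-0.0222) and Xbp1 (-0.261), and on the 4 libraries Hsp90b1 (-0.000298), Ssr1 (0.00731) and Xbp1 (-0.364). With a library left out, differences ranged from -0.244 to 0.0165 for Atf4, -0.580 to 0.0881 for Calr, -0.366 to 0.105 for Canx, -0.118 to 0.432 for Hsp90b1, -0.0183 to 0.731 for Pdia4, -0.440 to 0.118 for Pdia6, -0.105 to 0.000591 for Ssr1, -0.487 to 0.0287 for Trib3 and -0.166 to 0.237 for Xbp1. Few fragments lay behind Chac1, listed at 0 in 4 libraries, and Trib3, at 55 to 198 fragments a library. Whether depth or low expression set these counts was not tested.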

Other observations

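Cytosolic and mitochondrial heat shock genes, the counterpart of the ER chaperones, had 1 member higher and 4 lower of 23 in cKO-labelled libraries, against 5.87% and 13.6% of all genes. Their median difference was 0.04, against -0.17 over all genes, and its sign turned without cKO 3 (-0.16), Ctrl 2 (-0.06) or Ctrl 3 (-0.06) and with array weights (-0.07). Hsp90aa1, the inducible cytosolic HSP90, averaged 115.1 and 48.8 FPKM in Ctrl-labelled and cKO-labelled libraries (-1.26, SE 0.22, adjusted p = 0.00890). Hspb8, a small heat shock protein of selective autophagy, averaged 40.03 and 16.3 FPKM (-1.20, SE 0.22, adjusted p = 0.00985). Hspa4l (-0.89) and Hsf1 (-0.53), named after their values were seen, were the other genes called lower. Hspb1, a small heat shock protein of differentiating keratinocytes, was higher, at 65.0 and 128.1 FPKM (0.99, SE 0.23, adjusted p = 0.0235), and lost its call without library Ctrl 2, cKO 1 or cKO 3 (adjusted p = 0.0661, 0.0564 and 0.0507) and without the filter (0.0517). The 4 lower became 2 without library Ctrl 2, Ctrl 3 or cKO 1 and 6 on the 4 libraries. Of all genes 710, 781, 977 and 2400 were then lower, against 1576. The 1 higher became 0 without Ctrl 2, cKO 1 or cKO 3 and 3 on the 4 libraries. Of all genes 393, 399, 713 and 1172 were then higher, against 681.

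Genes of the coats that carry cargo between ER and Golgi had 1 member higher and 1 lower of 24 (4.17% each), below the shares of all genes. Sar1b, a GTPase of ER exit, averaged 35.7 and 56.6 FPKM (0.67, SE 0.18, adjusted p = 0.0350), and Arfgap3, which acts on Golgi coats, 7.06 and 2.79 FPKM (-1.10, SE 0.24, adjusted p = 0.0183). Sar1b was not called without library Ctrl 1, Ctrl 3, cKO 1 or cKO 2 (adjusted p = 0.0516 to 0.0959), without the filter (0.0567) or with the replicate block (0.0717), nor Arfgap3 without Ctrl 1, Ctrl 3 or cKO 2 (adjusted p = 0.0524 to 0.0695). The 1 lower became 3 without cKO 3 and 5 on the 4 libraries, when 12.4% and 20.6% of all genes were lower.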
